A study of Mus musculus with 6 samples.

Results

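The transcripts of 56 genes of meiotic recombination, out of 55536 genes counted, were compared between the testes of KOStra8 and HETStra8 mice. The genes were taken by name, across the steps from the DNA break to the crossover, and all 56 were found in the count files and passed the filter on low counts. Whole testis RNA came from 3 KOStra8 and 3 HETStra8 males at 7 weeks of age, with 1 library per mouse, so the spread in every test is that between mice. The KOStra8 mice carried 1 floxed and 1 deleted Sel1L allele (flox/Δ) and Stra8-Cre, in which the germ cell promoter of Stra8 drives the Cre. HETStra8 mice are entered in the deposited labels as Sel1L flox/Δ littermates with no Cre named, while the paper places under that name both flox/+ males with Stra8-Cre and flox/Δ males, and no genotype is given mouse by mouse. Both groups therefore carried a floxed Sel1L allele. SEL1L, the partner of the ubiquitin ligase HRD1 in ER-associated degradation, was by the paper's staining lost from spermatocytes and spermatids of KOStra8 males but kept in their spermatogonia and Sertoli cells.

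Meiotic recombination begins when SPO11 and its partners cut the DNA of each chromosome in leptotene spermatocytes. The ends are trimmed to single strands, coated by RPA and then by recombinases such as DMC1, and these search the homologous chromosome for a match during zygotene. Most joined intermediates are undone without an exchange, and a small set is protected by the MutSγ proteins and cut as crossovers in pachytene, which is what holds the homologs together at the first division. Most of the genes are transcribed mainly in spermatocytes, and the RPA, Fanconi and filament mediator genes also serve repair in dividing cells outside meiosis.

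Library totals lay between 28875108 and 36526695 counts, and the 56 genes took 47220 to 64213 of them, a share of 0.156% to 0.176%. Levels are given in CPM, in which TMM scaling sets the libraries to a common size, a step that assumes most genes do not differ. The targeted gene, Sel1l, was at 49.3, 47.6 and 42.4 CPM in HETStra8 mice 1 to 3 and at 24.2, 22.0 and 20.3 CPM in KOStra8 mice 1 to 3, which is 47.7% of the HETStra8 mean. The KOStra8 mice were thus all below the HETStra8 mice, by 1.07 on the log2 scale (SE 0.104 and adjusted p = 0.00061 by edgeR's quasi-likelihood test). Germ cell markers were abundant in all 6 libraries, with summed levels of 6731 to 7303 CPM for 10 markers of pachytene and diplotene spermatocytes and 1335 to 1492 CPM for 10 markers of round spermatids, and the groups overlapped in both. Of the pachytene and diplotene markers 2, Mybl1 and Nme8, were higher at an unadjusted p under 0.05 and 0 were lower. The median log2 fold change of those 10 was −0.0091. Summed markers of leptotene and zygotene spermatocytes, the stages in which breaks are made and repaired, were at 1292, 1398 and 1767 CPM in HETStra8 mice and at 2016, 1961 and 2022 CPM in KOStra8 mice, without overlap, and 3 of the 10 were higher at an unadjusted p under 0.05, against 7.13% of all genes. Their median log2 fold change was 0.46, or 0.07 after the GC correction described further on, and 0.73 without HETStra8 mouse 3. With that correction 7 of the 10 were positive and 3 were higher at an unadjusted p under 0.05, against 3.86% of all genes. With the correction and without HETStra8 mouse 3, edgeR's test put 3 of them higher at an adjusted p of 0.01, against 0.484% of all genes. Summed Sertoli cell markers were at 958 to 1152 CPM in HETStra8 and 797 to 920 CPM in KOStra8 mice. Of these 10, 3 were lower at an unadjusted p under 0.05, against 5.12% of all genes. Other somatic markers also had negative medians, of −0.36 over 9 macrophage, −0.30 over 9 Leydig cell and −0.21 over 7 peritubular myoid cell markers, with 3, 1 and 2 of them lower at that p. Corrected, the medians of the Sertoli, macrophage, Leydig and myoid markers were −0.096, −0.24, −0.25 and −0.14. At that p 3, 1, 1 and 0 of them were lower in the corrected fit, against 3.76% of all genes. In RNA of whole testes, fewer cells of a type and less RNA per cell cannot be told apart.

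Levels per length, in CPM per kb of exon, spanned a wide range within every step. In HETStra8 testes the highest was that of Psmc3ip at 73.9 CPM per kb, followed by Rpa1 at 43.9, Zswim7 at 37.4 and Cntd1 at 25.5. At the other end stood Mei4 at 0.0691, Rmi2 at 0.592 and Gm960 at 0.719 CPM per kb. The recombinase gene Dmc1, at 5.97 CPM per kb, and the nuclease gene Spo11, at 14.6, lay between. Mei4 was the only gene of the 56 with under 10 counts in a library. The largest difference between genes was far wider than any difference between mice, as the plot of levels per length shows.

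**Figure D1:**
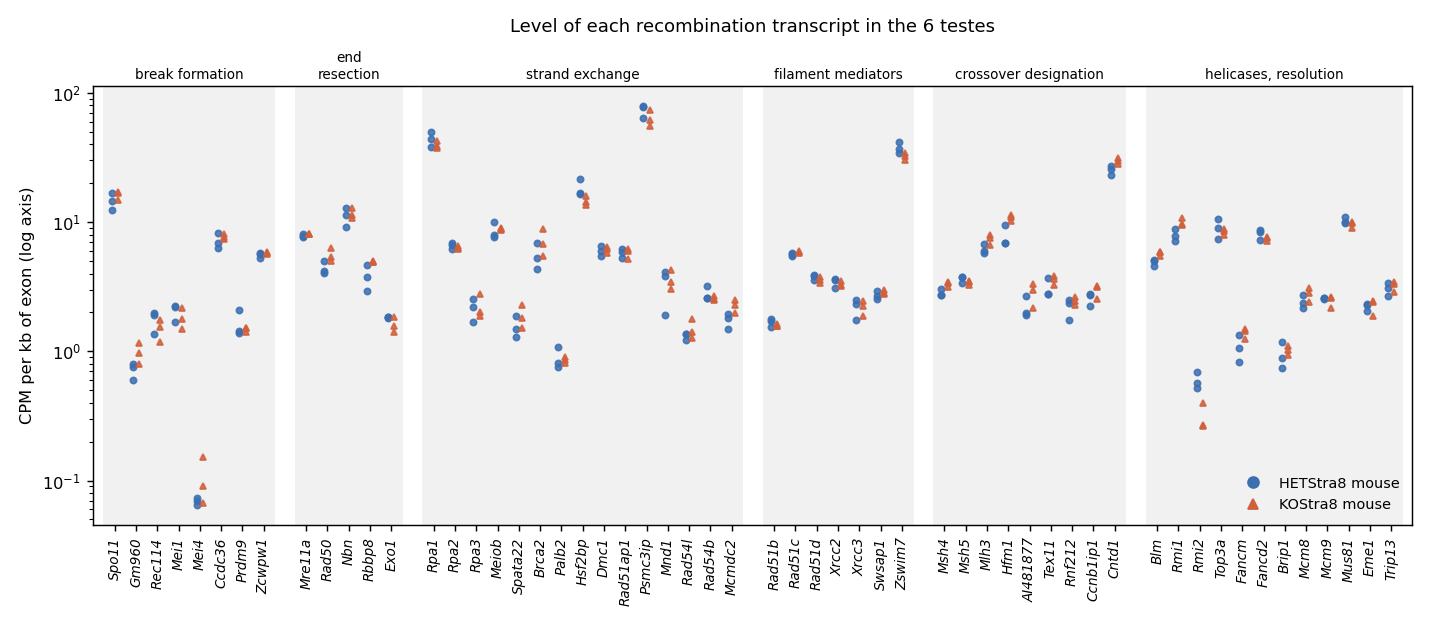
Level of each of the 56 transcripts in CPM per kb of exon (log axis), by recombination step, with circles for the 3 HETStra8 mice and triangles for the 3 KOStra8 mice. Psmc3ip stands highest at 73.9 CPM per kb in HETStra8 and Mei4 lowest at 0.0691, and circles and triangles overlap for most genes.

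Promoter sequences were looked at because many of these genes are switched on together at meiotic entry. RefSeq windows from 250 bases before to 50 after the transcript start (GRCm38.p6) matched 40 of the 56 genes. The letters CNCCTCAG, bound by STRA8, were present on either strand in 7 of the 40 genes (17.5%) and in 9.12% of the 27025 genes with a window. GCGCATGC, bound by NRF1, was in 7 of 40 (17.5%) against 3.05% of all, TGACGTCA, the CRE, in 3 of 40 (7.5%) against 2.03%, and CAACTG, bound by MYB proteins and also a form of the CANNTG E-box, in 4 of 40 (10%) against 15.4%. The windows of the 40 genes had a median GC content of 59.7%, against 52.7% in all, and a median of 22 CpG, against 7. A match describes letters and is not a binding site. Below are the windows of 4 genes whose transcripts had an unadjusted p under 0.05 in the comparison of the groups, 3 of them higher and Hsf2bp lower, with every match to these letters in capitals. They were chosen for holding a match: of the genes with such a p and a window, Msh4, Blm and Rmi1 held none and Cntd1, not shown, held 1 MYB match. The positions, all GRCm38.p6, are chr5:106925841-106926140 on the minus strand for Hfm1, chr12:85270550-85270849 on the minus strand for Mlh3, chr12:65075353-65075652 on the plus strand for Fancm and chr17:32034459-32034758 on the minus strand for Hsf2bp.
Hfm1: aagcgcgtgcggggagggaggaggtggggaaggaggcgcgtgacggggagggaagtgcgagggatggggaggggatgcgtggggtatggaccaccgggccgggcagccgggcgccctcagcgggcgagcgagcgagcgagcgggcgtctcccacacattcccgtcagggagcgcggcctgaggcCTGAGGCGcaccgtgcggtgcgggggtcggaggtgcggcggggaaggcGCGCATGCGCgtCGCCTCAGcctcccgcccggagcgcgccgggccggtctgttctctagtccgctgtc
Mlh3: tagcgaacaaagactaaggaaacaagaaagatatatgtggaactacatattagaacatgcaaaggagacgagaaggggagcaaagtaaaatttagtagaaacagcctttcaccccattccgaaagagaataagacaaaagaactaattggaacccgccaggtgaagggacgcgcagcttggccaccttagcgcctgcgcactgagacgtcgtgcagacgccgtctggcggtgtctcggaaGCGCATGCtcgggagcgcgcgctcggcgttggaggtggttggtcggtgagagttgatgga
Fancm: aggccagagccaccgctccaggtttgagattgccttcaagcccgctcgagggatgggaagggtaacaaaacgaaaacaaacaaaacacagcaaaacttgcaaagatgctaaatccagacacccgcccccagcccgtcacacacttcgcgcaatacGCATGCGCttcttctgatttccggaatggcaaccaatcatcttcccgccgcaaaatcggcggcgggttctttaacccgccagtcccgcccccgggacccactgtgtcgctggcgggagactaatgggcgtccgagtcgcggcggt
Hsf2bp: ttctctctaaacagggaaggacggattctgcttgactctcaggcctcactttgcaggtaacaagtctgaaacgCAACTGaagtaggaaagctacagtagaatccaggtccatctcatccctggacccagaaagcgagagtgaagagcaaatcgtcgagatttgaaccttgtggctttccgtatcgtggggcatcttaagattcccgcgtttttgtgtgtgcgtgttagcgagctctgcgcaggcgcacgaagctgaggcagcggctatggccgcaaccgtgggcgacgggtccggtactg
Hfm1 held 2 STRA8 matches, whose first letters lay 66 and 6 bases before the start, and an NRF1 match that reads on both strands, so that its copies at 18 and 16 bases before the start overlap. Mlh3 held 1 NRF1 match at 10 bases before the start and Fancm 1 at 95 bases. The Hsf2bp window held 1 MYB match, at 177 bases before the start.

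Between the groups, no recombination transcript differed past an adjusted p of 0.01 by edgeR's quasi-likelihood test over 21465 genes. The count was 0 of 56, and of all genes that test called only 3 higher and 1 lower (0.0186%). The lowest adjusted p of the 56 was 0.150, that of Hfm1. At an unadjusted p under 0.05, 10 transcripts were higher in KOStra8 testes (17.9% of the 56, against 7.13% of all genes) and 2 were lower (3.57%, against 5.12%). DESeq2 called 1 of the 56 at an adjusted p of 0.01, Hfm1, and gave no adjusted p for 10, and limma-voom called 0. Of the 12232 genes to which DESeq2 gave an adjusted p, it called 121 higher and 11 lower. The study paired the same adjusted p with a fold change cutoff, which was not applied here. Its text does not name the test, and it called more genes than edgeR did here. The lack of calls by edgeR is therefore not a result by the study's own criterion. In 8 of the 56 (14.3%) every KOStra8 mouse exceeded every HETStra8 mouse, against 9.33% of all genes, and in 2 (3.57%) they were all below, against 8.43%. Log2 fold changes were positive for 35 of the 56, with a median of 0.05 beside −0.0094 over all genes, of which 48.5% were positive. All but Mei4 at 0.55 and Rmi2 at −0.94 lay between −0.32 and 0.49.

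These counts moved with single libraries and with the base composition of the transcripts. Without HETStra8 mouse 3, Hfm1 (adjusted p = 0.000235) and Rbbp8 (adjusted p = 0.00389) passed edgeR's test at 0.01, where 1.91% of all genes were called higher and 0.0996% lower, and the median log2 fold change of the 56 was 0.14. With each library adjusted for GC content and transcript length, termed the correction here, and without the same mouse, 0 of the 56 passed in either direction, where 0.484% of all genes were called higher and 0.163% lower. At an unadjusted p under 0.05 in edgeR's test, without HETStra8 mouse 3, 13 transcripts were higher and 4 lower. Of the 21465 genes tested with all 6 mice, 2399 were higher and 1930 lower in that fit. With the correction as well, 8 of the 56 were higher and 3 lower. Without HETStra8 mouse 1, HETStra8 mouse 2, KOStra8 mouse 1 or KOStra8 mouse 3 the number higher was 6, 5, 5 and 4, and without KOStra8 mouse 1 the number lower was 1. At this p, shares of all genes were not counted for these fits or for the correction without HETStra8 mouse 3. With all 6 mice and the GC correction, 4 of the 56 were higher (7.14%, against 3.86% of all genes) and 3 lower (5.36%, against 3.76%), 30 were positive and the median was 0.024. The transcripts still higher were Hfm1, Rad50 and Cntd1, joined by Gm960, and those lower were Rmi2 and Hsf2bp, joined by Exo1.

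**Figure D2:**
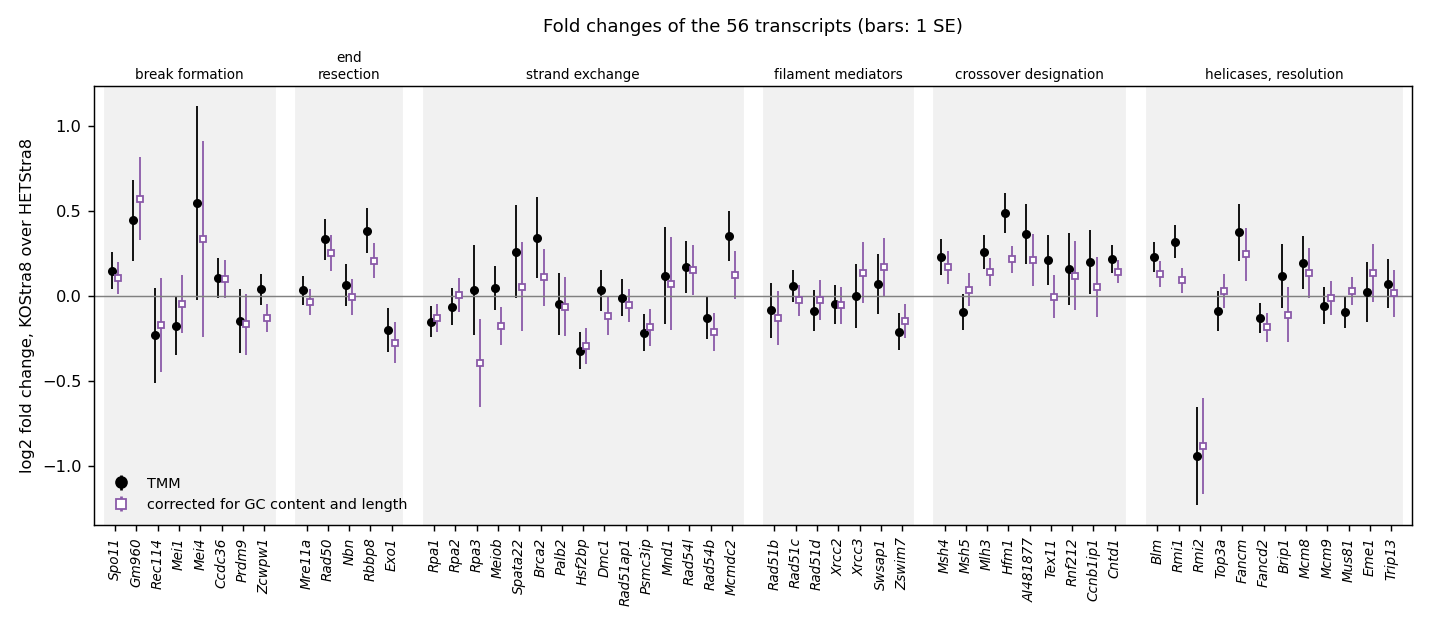
Log2 fold change of each transcript, KOStra8 over HETStra8, with 1 SE, for TMM scaling (filled circles) and with GC content and transcript length corrected for (open squares), by step. Hfm1 moved from 0.49 to 0.22 with the correction, while Rmi2 stayed low, at −0.94 and −0.88.

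The link to base composition was seen within the 56 and in the rest of the transcriptome. Spearman's rho between log2 fold change and GC content was −0.624 over the 56 transcripts and −0.46 over 21457 genes, which share the same 6 libraries and are not independent, and after the correction it was −0.122 and −0.013. Of the 28 transcripts with the lower GC content, from 34.2% to 45.7%, 26 were positive and 10 were higher at an unadjusted p under 0.05, with a median log2 fold change of 0.22. Of all 6794 genes in that band, 75.8% were positive and 17.8% were higher, with a median of 0.16. Among the 28 with the higher GC content, from 45.8% to 56.9%, 9 were positive, 0 were higher and 2 were lower in edgeR's test, with a median of −0.08, and the 11981 genes of that band had 38.1% positive, 2.35% higher and 5.93% lower. Corrected, the lower-GC transcripts had 18 positive and a median of 0.10, and the higher-GC ones 12 positive and a median of −0.026. Within HETStra8 the libraries differed in the same property. The rho between GC content and a gene's deviation from its mean was 0.531 and 0.429 in HETStra8 mice 1 and 2 but −0.092 in mouse 3, and it was −0.378, −0.261 and −0.528 in KOStra8 mice 1 to 3. The median deviation of the 56 transcripts was −0.11, −0.06 and 0.08 on the log2 scale in HETStra8 mice 1 to 3, and 24, 13 and 2 of them had their lowest level in those mice.

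**Figure D3:**
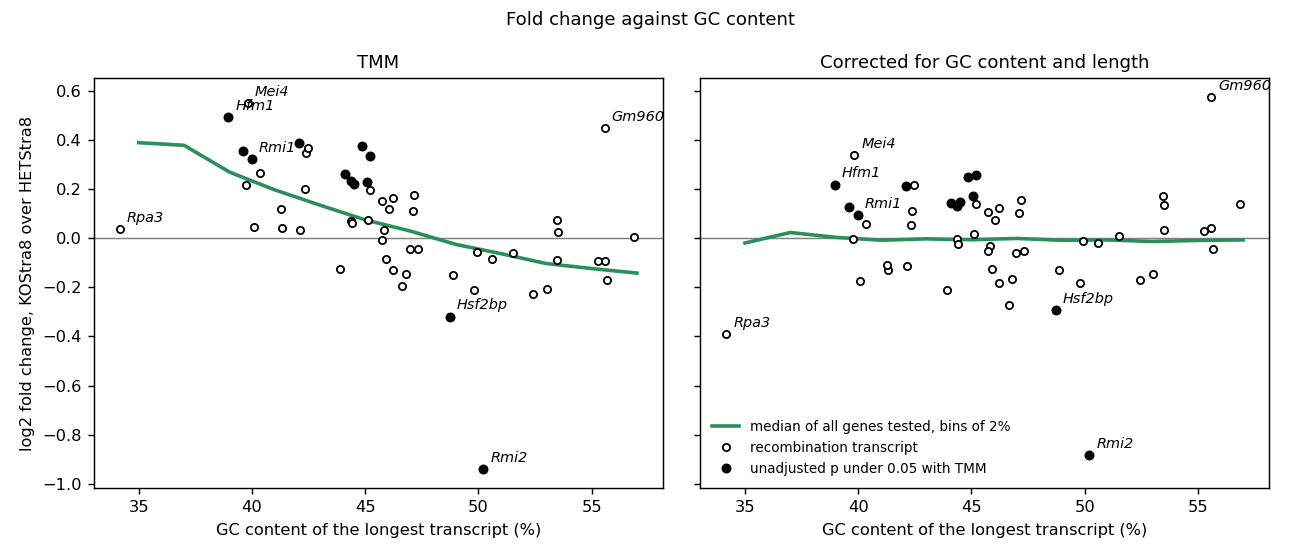
Log2 fold change of the 56 transcripts against the GC content of the longest transcript (%), with TMM scaling (left) and after the correction (right). Filled points had an unadjusted p under 0.05 with TMM, and the line is the median of all genes tested in bins of 2%, which falls from 0.39 to −0.14 on the left and stays near 0 on the right.

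Break formation was the step with no transcript past an unadjusted p of 0.05 among its 8, of which 5 were positive, with a median log2 fold change of 0.08. Spo11 (ENSMUSG00000005883), which encodes the enzyme that makes the break, was at 48.7, 57.5 and 65.9 CPM in HETStra8 and 66.3, 58.04 and 66.8 CPM in KOStra8 mice. HETStra8 mouse 1 was lowest, and HETStra8 mice 2 and 3 lay within or next to the KOStra8 range, so the groups overlapped, with a log2 fold change of 0.15 (SE 0.108 and adjusted p = 0.593 by edgeR's quasi-likelihood test). Gm960, also named Top6bl, encodes the second subunit of the SPO11 core complex and was at 2.23, 2.94 and 2.82 against 3.61, 2.94 and 4.33 CPM. Its log2 fold change was 0.45 (SE 0.237) and 0.57 (SE 0.244) with the correction, the only one of the step with an unadjusted p under 0.05 there. The proteins that gather the machinery on the chromosome axis are encoded by Rec114, Mei4 and Ccdc36, also named Iho1, with MEI1 as a further required factor. Mei4 was counted 9, 9 and 10 times in HETStra8 and 13, 18 and 10 times in KOStra8 mice, too few to tell the groups apart (log2 fold change 0.55, SE 0.570). Rec114 lay between 1.52 and 2.51 CPM over the 6 mice, Mei1 between 7.12 and 10.6 and Ccdc36 between 18.3 and 23.8. Prdm9, whose zinc finger protein marks the hotspots where breaks fall, was at 6.17, 5.94 and 9.003 CPM in HETStra8 and 6.50, 6.08 and 6.49 CPM in KOStra8 mice. Only HETStra8 mouse 3 stood out, and without it the sign turned from −0.15 to 0.08. The level of Zcwpw1, which encodes a reader of the marks PRDM9 sets, lay between 29.9 and 33.3 CPM, the narrowest relative range of the step.

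Resection of the broken ends was represented by 5 transcripts, 4 of them positive, with a median log2 fold change of 0.07. Of the 5, 2 had higher levels in every KOStra8 mouse, against 9.33% of all genes. Rbbp8 encodes CtIP, which starts resection together with the MRE11 nuclease. It was at 36.8, 47.3 and 57.9 CPM in HETStra8 and 61.9, 61.0 and 62.7 CPM in KOStra8 mice, so the KOStra8 mice were tight and above a spread-out HETStra8 group (log2 fold change 0.39, SE 0.134 and adjusted p = 0.293 by edgeR's quasi-likelihood test, and 0.21 corrected). Rad50 encodes the ATPase of the MRE11 complex. Its levels were 21.7, 22.5 and 26.8 CPM against 34.04, 26.8 and 28.7 CPM, where HETStra8 mouse 3 and KOStra8 mouse 2 nearly met (log2 fold change 0.33, SE 0.120 and adjusted p = 0.294 by the same edgeR test, and 0.26 corrected). The other subunits of that complex had values nearer 0, a difference that was not tested. Mre11a, the nuclease, lay between 45.5 and 48.2 CPM over all 6 mice, with a log2 fold change of 0.03. Nbn, the signalling subunit and the highest of the step per length, was at 23.4, 28.9 and 32.4 against 28.8, 27.4 and 32.5 CPM (log2 fold change 0.07, SE 0.123). Exo1, which encodes the exonuclease for long resection and was the lowest of the step per length, was at 15.2, 15.7 and 15.5 CPM in HETStra8 and 13.1, 11.9 and 15.4 CPM in KOStra8 mice. KOStra8 mouse 3 reached the HETStra8 level and the log2 fold change was −0.20 (SE 0.129), or −0.27 (SE 0.119) corrected, where its unadjusted p was under 0.05.

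Strand binding and exchange had 15 transcripts, of which 8 were positive, with a median log2 fold change of 0.03. At an unadjusted p under 0.05, 1 was higher and 1 lower, against 7.13% and 5.12% of all genes. The lower was Hsf2bp (ENSMUSG00000002076, chr17:31944769-32036349, GRCm38), which encodes the meiotic protein that brings BRCA2 to the breaks. It stood at 59.4, 60.4 and 76.9 CPM in HETStra8 and at 49.0, 57.1 and 51.6 CPM in KOStra8 mice. All KOStra8 mice were below all HETStra8 mice, at 80.2% of their mean (log2 fold change −0.32, SE 0.108 and adjusted p = 0.276 by edgeR's quasi-likelihood test), and the correction left it at −0.29. Without HETStra8 mouse 3, the highest of the 6, it was −0.18. Its partner Brca2, the loader of DMC1, was at 58.7, 72.5 and 94.5 CPM against 120, 75.2 and 91.5 CPM. Both groups were spread and overlapped, with a log2 fold change of 0.34 (SE 0.238) and of 0.11 corrected. Palb2, which links BRCA2 to BRCA1 and was the lowest of the step per length, was at 5.95, 5.59 and 7.92 against 6.67, 6.29 and 5.92 CPM, a log2 fold change of −0.04 (SE 0.181).

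Dmc1, the recombinase found only in meiosis, was at 14.5, 13.2 and 15.8 CPM in HETStra8 and 14.97, 14.0 and 15.6 CPM in KOStra8 mice, and the KOStra8 range lay inside the HETStra8 range (log2 fold change 0.03, SE 0.123 and adjusted p = 0.935 by edgeR's quasi-likelihood test). The cofactor pair that helps DMC1 invade is HOP2 and MND1. Psmc3ip, the HOP2 gene, was at 117, 142 and 144 CPM in HETStra8 and 102, 113 and 133 CPM in KOStra8 mice. HETStra8 mouse 1 fell among the KOStra8 mice, and the log2 fold change was −0.21 (SE 0.109 and adjusted p = 0.444 by the same edgeR test). Its exons overlap those of Mlx on the other strand over 21.2% of their length, and the strand setting of the counting is not given in the sources used here. Mnd1 lay between 1.69 and 3.70 CPM, with its lowest level in HETStra8 mouse 1. Mcmdc2, which encodes an MCM-like protein needed for the homology search, was the transcript of the step with higher levels in every KOStra8 mouse, at 10.8, 8.86 and 11.5 CPM against 11.7, 14.7 and 13.4 CPM. Its log2 fold change was 0.35 (SE 0.147 and adjusted p = 0.363 by the same edgeR test), and 0.13 with the correction.

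The subunits of RPA, which first coats the single strands, were not alike in level: Rpa1 lay between 209 and 277 CPM, Rpa2 between 18.5 and 20.6 and Rpa3 between 1.93 and 3.14 CPM, with log2 fold changes of −0.15, −0.06 and 0.04. Rpa3 had the lowest GC content of the 56, at 34.2%, and its sign turned with the correction, to −0.39 (SE 0.259). The meiotic RPA relatives were Meiob, at 13.8 to 18.1 CPM, and its partner Spata22, at 1.65 to 2.90 CPM. In the annotation, exons of Gm49340 on the same strand cover 80.5% of those of Spata22, so its counts may be split. RAD51AP1, which stimulates the recombinases, and the translocases RAD54L and RAD54B complete the step, at 24.8 to 30.01, 9.35 to 13.6 and 14.3 to 18.5 CPM for their transcripts. Their log2 fold changes were −0.01, 0.17 and −0.13, and none passed an unadjusted p of 0.05.

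The filament mediators, 5 relatives of the recombinases that stabilise their filaments on DNA, and the SWSAP1 and SWS1 pair, which does so in meiosis, gave the tightest set of values. Of 7 transcripts 3 were positive, with log2 fold changes from −0.21 to 0.07 and a median of −0.05, and 0 passed edgeR's test at an unadjusted p of 0.05. The summed level was 105, 99.0 and 99.3 CPM in HETStra8 mice and 97.1, 97.7 and 96.6 CPM in KOStra8 mice, so the KOStra8 mice were lower by little and without overlap. Rad51c, shared by both complexes of these relatives, was at 23.9 to 26.1 CPM, Rad51d at 12.6 to 14.6, Xrcc2 at 16.1 to 18.8 and Xrcc3 at 4.79 to 6.81 CPM. Rad51b, the lowest of the step per length, was at 6.49, 5.76 and 6.66 against 5.90, 5.87 and 6.08 CPM (log2 fold change −0.08, SE 0.164). Zswim7, the SWS1 gene and the highest per length, was at 30.6, 26.8 and 24.9 CPM against 22.3, 25.01 and 23.9 CPM. KOStra8 mouse 2 reached just above HETStra8 mouse 3, and the log2 fold change was −0.21 (SE 0.109 and adjusted p = 0.451 by edgeR's quasi-likelihood test). Swsap1 lay between 4.71 and 5.48 CPM.

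Crossover designation was the step with the highest median, 0.22 on the log2 scale, and 8 of its 9 transcripts were positive, 4 of them higher at an unadjusted p under 0.05, against 7.13% of all genes and 17.8% of the genes in the lower-GC band, which holds those 4 (Hfm1, Mlh3, Msh4 and Cntd1). Summed over the 9, the level was 263, 274 and 314 CPM in HETStra8 and 352, 319 and 352 CPM in KOStra8 mice, without overlap, with HETStra8 mouse 3 just under KOStra8 mouse 2. After the GC correction the median was 0.14, 8 were positive and 2 were higher at that p, against 3.86% of all genes in the corrected fit. The summed markers of leptotene and zygotene spermatocytes were higher in the same mice, with a median log2 fold change of 0.46, and of 0.07 with the correction. Corrected, 3 of the 10 markers were higher at an unadjusted p under 0.05. Their part in this difference was not tested.

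Hfm1 (ENSMUSG00000043410, chr5:106840192-106926321, GRCm38) encodes the meiotic helicase that extends the joint between homologs, and its promoter is the first of those printed above. It was at 45.8, 46.3 and 63.4 CPM in HETStra8 and at 76.4, 68.7 and 73.6 CPM in KOStra8 mice. Every KOStra8 mouse exceeded every HETStra8 mouse, and HETStra8 mouse 3 lay nearer to them than to its own group. The mean was 140.6% of that in HETStra8, a log2 fold change of 0.49 (SE 0.118 and adjusted p = 0.150 by edgeR's quasi-likelihood test). Whichever mouse was left out, it stayed between 0.41 and 0.67. With the correction it was 0.22 (SE 0.0804 and adjusted p = 0.541 by the same edgeR test). Hfm1 has a GC content of 39.0%, and the correction moved it by more than any other transcript of the 56 but Rpa3.

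The MutSγ pair, which clamps the intermediates that become crossovers, gave values of opposite sign, whose difference was not tested. Msh4 was at 18.9, 18.9 and 21.1 CPM in HETStra8 and 21.9, 23.8 and 23.3 CPM in KOStra8 mice, without overlap (log2 fold change 0.23, SE 0.106 and adjusted p = 0.404 by edgeR's quasi-likelihood test, and 0.17 corrected). Its partner Msh5 was at 18.8 to 20.8 against 18.1 to 19.3 CPM, a log2 fold change of −0.09 (SE 0.107) that turned to 0.04 with the correction. Mlh3, the endonuclease subunit that cuts the marked joints, was at 45.4, 43.4 and 51.2 against 59.9, 50.4 and 57.4 CPM. HETStra8 mouse 3 was just above KOStra8 mouse 2, so the groups overlapped, with a log2 fold change of 0.26 (SE 0.0978 and adjusted p = 0.312 by the same edgeR test, and 0.14 corrected).

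Cntd1, which encodes a cyclin-like protein that limits crossover sites, was the highest of the step per length, at 103, 115 and 121 CPM in HETStra8 and 132, 124 and 138 CPM in KOStra8 mice, without overlap. Its log2 fold change was 0.22 (SE 0.0822 and adjusted p = 0.312 by edgeR's quasi-likelihood test) and 0.15 with the correction. Exons of Becn1 on the opposite strand cover 70.2% of those of Cntd1, so that without the strand setting part of these counts may be Becn1's. AI481877, also named Shoc1, the XPF-like partner in crossover formation and the lowest of the step per length, was at 11.4, 11.1 and 15.5 against 19.2, 12.5 and 17.4 CPM (log2 fold change 0.37, SE 0.176, and 0.21 corrected). Tex11, an X-linked gene whose protein also works in crossover formation, was at 10.1, 10.1 and 13.3 against 13.2, 11.8 and 13.9 CPM. HETStra8 mouse 3 again sat among the KOStra8 mice, and the log2 fold change of 0.21 (SE 0.147) came to −0.0029 after the correction. The ligases that choose among sites, RNF212 and HEI10, were represented by Rnf212 at 2.90 to 4.33 CPM and Ccnb1ip1 at 4.23 to 6.08 CPM, with log2 fold changes of 0.16 (SE 0.212) and 0.20 (SE 0.187).

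**Figure D4:**
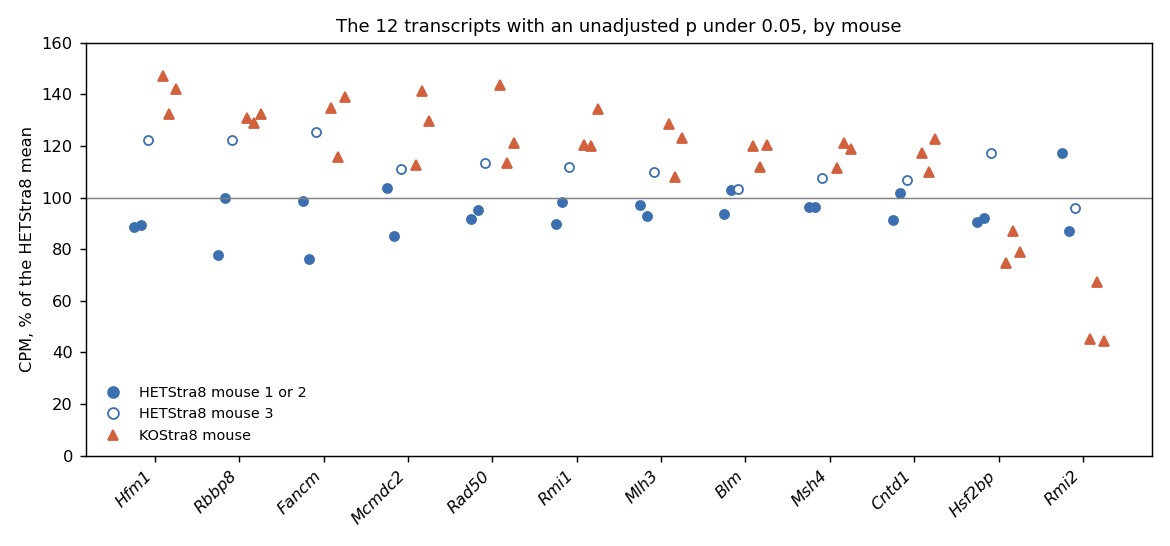
The 12 transcripts with an unadjusted p under 0.05, as CPM in percent of the HETStra8 mean, for HETStra8 mice 1 and 2 (filled circles), HETStra8 mouse 3 (open circles) and KOStra8 mice (triangles). HETStra8 mouse 3 is the highest of its group for each of the 10 transcripts on the left, and Hsf2bp and Rmi2 on the right are lower in all KOStra8 mice.

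Helicases and nucleases that dissolve or resolve the joints numbered 12, with 7 positive and a median log2 fold change of 0.05. At an unadjusted p under 0.05, 3 were higher and 1 lower, against 7.13% and 5.12% of all genes. In the lower-GC band, which holds those 3 (Rmi1, Blm and Fancm), 17.8% of all genes were higher. The lower was Rmi2 (ENSMUSG00000037991, chr16:10835059-10892966, GRCm38), a small subunit of the BLM dissolvase and the lowest of the step per length. It was counted 98, 78 and 85 times in HETStra8 and 42, 52 and 43 times in KOStra8 mice, or 3.12, 2.32 and 2.55 against 1.202, 1.80 and 1.18 CPM. All KOStra8 mice were below all HETStra8 mice, at 52.3% of their mean, the largest shift of the 56 (log2 fold change −0.94, SE 0.286 and adjusted p = 0.232 by edgeR's quasi-likelihood test). It stayed between −1.15 and −0.81 with each mouse left out and at −0.88 with the correction.

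The other subunits of that complex had other values, and their difference from Rmi2 was not tested. Rmi1, its scaffold, was at 47.0, 51.5 and 58.5 CPM in HETStra8 and 63.0, 62.9 and 70.4 CPM in KOStra8 mice, without overlap (log2 fold change 0.32, SE 0.0967 and adjusted p = 0.231 by edgeR's quasi-likelihood test). The correction brought it to 0.09. Blm, the helicase, was at 40.2, 44.1 and 44.3 against 51.4, 47.9 and 51.6 CPM, also without overlap (log2 fold change 0.23, SE 0.0880 and adjusted p = 0.326 by the same edgeR test, and 0.13 corrected). Top3a, the topoisomerase, was at 33.9 to 48.5 against 36.7 to 40.5 CPM, with a log2 fold change of −0.09 (SE 0.118) and of 0.03 corrected.

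Fancm, which encodes a translocase that limits crossovers, was at 11.1, 8.56 and 14.1 CPM in HETStra8 and 15.1, 13.0 and 15.6 CPM in KOStra8 mice, where HETStra8 mouse 3 lay above KOStra8 mouse 2 (log2 fold change 0.38, SE 0.168 and adjusted p = 0.388 by edgeR's quasi-likelihood test, and 0.25 corrected). Fancd2, of the same Fanconi pathway, lay between 56.3 and 68.7 CPM and the helicase gene Brip1 between 5.50 and 8.79 CPM, with log2 fold changes of −0.13 and 0.12. Mcm8 and Mcm9, whose proteins form a repair helicase, lay at 8.11 to 11.5 and 19.7 to 24.1 CPM, with 0.20 and −0.06. Mus81, the nuclease of the minor crossover route and the highest of the step per length, was at 38.8, 35.5 and 35.0 against 35.0, 35.5 and 31.9 CPM (log2 fold change −0.09, SE 0.0944, and 0.03 corrected). Its partner Eme1 lay between 5.22 and 6.77 CPM. Trip13, the ATPase that strips HORMAD proteins from synapsed axes, lay between 9.38 and 11.9 CPM, with a log2 fold change of 0.08 (SE 0.144).

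**Figure D5:**
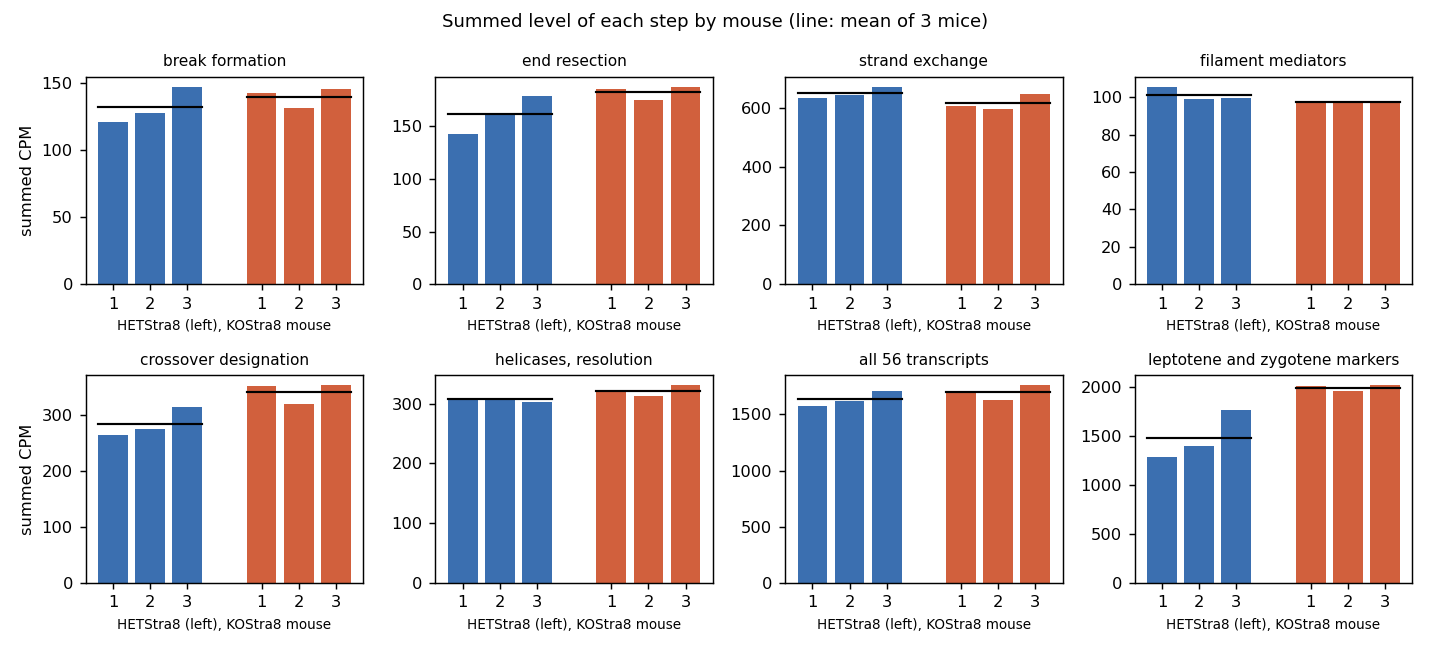
Summed CPM of the transcripts of each step, of all 56 and of 10 leptotene and zygotene markers, 1 bar per mouse, HETStra8 on the left and KOStra8 on the right, with a line at the mean of 3 mice. Crossover designation stands at 263 to 314 CPM in HETStra8 and at 319 to 352 CPM in KOStra8, and the sum of all 56 overlaps, at 1572 to 1711 and 1631 to 1759 CPM.

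A further 39 recombination genes outside the list were read from the same test. At an unadjusted p under 0.05, 5 of the 39 were higher and 2 were lower, against 7.13% and 5.12% of all genes, 19 were positive, against 48.5%, and the median log2 fold change was −0.0064, and edgeR's test with all 6 mice put 0 past an adjusted p of 0.01. Without HETStra8 mouse 3 that test put 3 past it, Tex15 (adjusted p = 9.17e-07), Ankrd31 (adjusted p = 3.85e-05) and Hells (adjusted p = 0.00335), and with the correction as well it put 2 past it, Tex15 (adjusted p = 1.38e-05) and Ankrd31 (adjusted p = 0.00173). All were higher, and those 2 fits called 1.91% and 0.484% of all genes higher. DESeq2 with all 6 mice called Ankrd31 alone. Ankrd31, whose protein works with REC114 in break formation, was at 42.6, 47.5 and 61.7 CPM in HETStra8 and 83.2, 78.9 and 77.6 CPM in KOStra8 mice. The groups were apart (log2 fold change 0.66, SE 0.118 and adjusted p = 0.0692 by edgeR's quasi-likelihood test), and the correction left 0.44 (adjusted p = 0.0927 by the same edgeR test). Tex15, which encodes a germ cell protein needed for loading of the recombinases, was at 58.4, 70.5 and 116 against 168, 155 and 177 CPM, a log2 fold change of 1.03 (SE 0.277 and adjusted p = 0.292 by the same edgeR test) and of 0.66 corrected. HETStra8 mouse 3 lay between the other HETStra8 mice and the KOStra8 mice. The paper lists qPCR primers for Tex15 and shows qPCR of genes found in its RNA sequencing, but its text gives no value for Tex15. Also higher were Gen1, a resolvase gene, at 0.45, Rad51ap2 at 0.55 and Hells, a chromatin remodeller that acts with PRDM9, at 0.35 on the log2 scale, which with the correction came to 0.22, 0.26 and 0.01. Lower were 4930432K21Rik, also named Brme1, whose protein binds HSF2BP, at −0.19, and BC030867, also named Hrob, whose protein loads MCM8 and MCM9, at −0.36, which came to −0.06 and −0.23. Corrected, Ankrd31 and Tex15 were the 2 higher at an unadjusted p under 0.05, while edgeR's test with all 6 mice found 0 lower and put 0 past an adjusted p of 0.01. Of all genes, 3.86% were higher and 3.76% lower at that unadjusted p in the corrected fit.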

How the data were processed

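Testis RNA of 6 mice, 3 KOStra8 and 3 HETStra8, was analysed, grouped by the sample titles. The authors deposited raw counts of reads per Ensembl gene, 1 table per mouse, from directional poly(A)+ libraries. The submitters' processing notes name STAR 2.7.1a, Picard 2.20.4, StringTie 2.0.4 and featureCounts 1.6.0, among others, without roles. The strand setting is not given in the sources used here. All 55536 identifiers are in GENCODE mouse M21 (GRCm38), which gave symbols, positions, GC content and lengths.

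Counts were fitted in R 4.3.3 with edgeR 4.0.16 (filterByExpr, TMM, robust quasi-likelihood fit, genotype as the only term, two-sided F test, Benjamini-Hochberg adjustment over 21465 genes). The common biological coefficient of variation was 0.160, and 3 mice against 3 cannot give an exact permutation p below 0.1. CPM are TMM-scaled. Corrected values used offsets from a loess curve per library on GC content and length (span 0.3, genes above a log2 CPM of 2), which left 8 tested genes without a GC value uncorrected. The alternatives also held library totals or DESeq2's size factors, 2 other filters, the mouse number as a block, DESeq2 1.42.0, limma-voom (limma 3.58.1), an adjusted p of 0.05 and each mouse left out. The steps were tested on simulated data. Members, step lists, markers and motifs were chosen with earlier results of these data known. Values per mouse are given for genes with an unadjusted p under 0.05, the lowest and highest per length of each step, and Spo11, Prdm9, Dmc1, Hfm1, Msh4, Tex11 and Brca2. Of the 39 other recombination genes, up to 5 in each direction with an unadjusted p under 0.05 are named by p. Some genes of that list are not reported here.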

Additional observations from a re-analysis of the deposited data

How the results depend on the processing

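Of the 56, 0 passed 0.01 after adjustment in edgeR's fit, 0 passed 0.05 there, and 0 passed 0.01 with DESeq2's size factors, library totals, at least 10 counts in every sample, the replicate block, the GC and length correction or limma-voom, while 2 passed 0.01 without a filter on low counts, 1 with DESeq2 and 0 to 2 with each mouse left out. The fit without a filter called 337 of all 35894 genes higher and 48 lower at 0.01, against 3 and 1 in the main fit. Members higher at an unadjusted p under 0.05 numbered 4 with the GC correction, 4 with it and the replicate block, 8 with the correction and without HETStra8 mouse 3, and 4 to 13 with each mouse left out. Members lower numbered 4 with the correction and the replicate block and 1 to 4 with each mouse left out. After the correction 7 members were above and 6 below without overlap, in place of 8 and 2. The share of all genes without overlap after the correction was not counted. Of the other recombination genes, 2 were higher with the correction, 2 with it and the block, and 3 to 7 with each mouse left out, and lower were 0 with DESeq2's size factors, library totals, at least 10 counts, the correction or the correction with the block, 1 with the replicate block, DESeq2 or limma-voom, and 0 to 3 with each mouse left out. The labels do not say whether mouse numbers pair the animals. Deviations of same-numbered mice correlated at −0.072, −0.119 and 0.177, and not every mouse correlated best with its own number. With 3 mice per group, such correlations cannot show whether the animals were paired. The replicate block in edgeR's fit gave 13 members at an unadjusted p under 0.05 in place of 12. Over all genes tested it put 31 higher at an adjusted p of 0.01 in place of 3. With the GC correction the sign turned for Zcwpw1 (−0.13), Mre11a (−0.032), Nbn (−0.0049), Rpa2 (0.0076), Rpa3 (−0.39), Meiob (−0.17), Dmc1 (−0.11), Rad51c (−0.025), Msh5 (0.040), Tex11 (−0.0029), Top3a (0.033), Brip1 (−0.11) and Mus81 (0.029). With the correction and the replicate block it turned for Zcwpw1 (−0.13), Mre11a (−0.032), Nbn (−0.0008), Rpa2 (0.0089), Rpa3 (−0.39), Meiob (−0.17), Dmc1 (−0.11), Rad51c (−0.025), Msh5 (0.039), Tex11 (−0.0021), Top3a (0.039), Brip1 (−0.099) and Mus81 (0.029). With the correction and without HETStra8 mouse 3 it turned for Mei1 (0.057), Prdm9 (0.045), Zcwpw1 (−0.15), Mre11a (−0.053), Rpa2 (0.057), Rpa3 (−0.41), Meiob (−0.13), Palb2 (0.10), Dmc1 (−0.10), Rad51c (−0.029), Rad51d (0.031), Msh5 (0.030), Mcm9 (0.011) and Mus81 (0.036). With library totals it turned for Rad51ap1 (0.0035). Leaving out each mouse in turn also turned the sign of Prdm9 (−0.26 to 0.080), Zcwpw1 (−0.0005 to 0.077), Nbn (−0.051 to 0.19), Rpa3 (−0.14 to 0.19), Meiob (−0.028 to 0.19), Palb2 (−0.14 to 0.14), Dmc1 (−0.030 to 0.11), Rad51ap1 (−0.068 to 0.075), Mnd1 (−0.15 to 0.32), Xrcc3 (−0.14 to 0.10), Top3a (−0.20 to 0.042), Brip1 (−0.025 to 0.33), Mcm9 (−0.11 to 0.036), Eme1 (−0.039 to 0.14) and Trip13 (−0.0053 to 0.16), all with small values by TMM. The causes of these shifts were not tested. Genes with few counts, Mei4 above all, carry counting error besides the spread between mice.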
